A study of Mus musculus with 8 samples.

Results

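The canonical Wnt response was followed through 9 genes in the RNA-seq of JUN TetON ESCs, a mouse embryonic stem cell line with a JUN transgene that doxycycline switches on. The 9 genes were chosen by name from the 50600 rows of the deposited expression table, as beta-catenin, the 4 TCF/LEF factors and 4 of their targets. They were *Ctnnb1*, *Tcf7*, *Lef1*, *Tcf7l1*, *Tcf7l2*, *Axin2*, *Sp5*, *Nkd1* and *T*. The labels describe OG2 transgenic cells of genotype c-Jun_TetOn_mESC, on a mixed background of 129SVJ (1/2), C57B6 (3/8) and CBA (1/8) at passage 12, grown without feeders in 2i medium with serum, LIF, PD0325901 and Chir99021. Chir99021 inhibits GSK3, the kinase that marks beta-catenin for destruction, so a Wnt agonist was present in all 4 groups. All groups also received 2 µg/ml doxycycline, and they differed in what was added for 6 h, which was the solvent DMSO, PFI-3, BI-9564, or the 2 compounds together (P+B). PFI-3 binds the bromodomain of BRG1, an ATPase of the BAF chromatin remodelling complex, and BI-9564 those of BRD9 and BRD7. The labels give 6 h of doxycycline with compound, whereas the study's supplement describes a longer JUN induction than compound exposure, so the length of induction is not settled by the sources. Each group had 2 libraries, and no group without doxycycline or without Chir99021 was analysed here, so each difference below was measured in cells with JUN induced and GSK3 inhibited. Whether the cells were 1 clone is not given in the sources used here, nor is it said whether the 2 libraries of a group came from separate cultures, so the p-values measure only the spread between these libraries. The concentration of each compound within P+B is not settled by the sources, so P+B and the single compounds may not be matched in dose.

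In the canonical pathway, beta-catenin (*Ctnnb1*) is held low by a destruction complex of APC, axin, casein kinase 1 and GSK3. When the complex is inhibited, beta-catenin enters the nucleus and binds TCF/LEF factors, which otherwise sit on target genes with Groucho/TLE co-repressors. In mouse ESCs, TCF7L1 acts mainly as a repressor of pluripotency genes, and its relief through GSK3 inhibition helps to keep the cells in the naive state. *Axin2* and *Sp5* are targets found in many cell types, while *T* (Brachyury) is a target that also marks the primitive streak.

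The libraries held between 10285 and 10451 genes with a value of at least 5. Values are TPM (transcript abundance scaled by length and library total) made whole numbers by the authors, and TPM keeps no read number, so depth and counting error are unknown. ESC identity was checked with 8 markers, which summed to 3512 to 5377 TPM per library, with *Pou5f1* between 1104 and 1333 TPM. Of 6 fibroblast markers 3 were at 0 in all libraries and the list summed to at most 5 TPM, and 6 primitive endoderm markers summed to at most 6 TPM. Trophoblast markers summed to 13 to 18 TPM under DMSO and 10 to 13 TPM under P+B. The induced gene, *Jun*, had 1970 and 2877 TPM under DMSO, 1570 and 2227 under PFI-3, 2071 and 3011 under BI-9564, and 1569 and 2159 under P+B. *Jun* was the higher of the pair in replicate 2 of all 4 groups. Within a replicate it was lower than DMSO in both replicates under P+B (log2 differences of −0.33 and −0.41) and under PFI-3 (−0.33 and −0.37), and higher in both under BI-9564 (0.07 and 0.07). Its mean log2 difference between P+B and DMSO was −0.37 (adjusted p = 0.437 from limma with groups only). With replicate number as a block the adjusted p was 0.00156, at less than 1.5-fold (interval −0.46 to −0.28), and the part of the lower *Jun* level in the P+B differences below was not tested.

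Among the 4 target genes, *Sp5* and *Axin2* had their highest values with P+B in both replicates. *Sp5*, which encodes a zinc finger factor of the Sp family, had 3 and 8 TPM under DMSO, 6 and 13 under PFI-3, 4 and 10 under BI-9564, and 22 and 37 under P+B. The P+B libraries stood above all 6 others, while the other 3 groups overlapped with each other. *Axin2*, a scaffold of the destruction complex that feeds back on the pathway, had 17 and 26 TPM under DMSO, 25 and 43 under PFI-3, 30 and 37 under BI-9564, and 42 and 57 under P+B. The P+B and BI-9564 libraries stood above both DMSO libraries, whereas PFI-3 overlapped with DMSO and P+B overlapped with PFI-3. In both genes replicate 2 was above replicate 1 in 4 of 4 groups. In bulk RNA a higher share of expressing cells and more transcript per cell cannot be told apart.

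Expression was compared as log2(TPM + 1) with limma, fitted to all 4 groups, over the 10222 genes whose mean reached 5 TPM. A call required both a 1.5-fold change and an adjusted p under 0.05 by the Benjamini-Hochberg method. The added 1 understates the change of low genes such as *Sp5*. Of the 9 members 6 passed the filter on low values, and *Lef1*, *Nkd1* and *T* did not. Against DMSO, 0 of the 6 were called with P+B, where 4% of all tested genes were called, and 4 of the 6 had an unadjusted p under 0.05, as did 22.6% of all tested genes. Libraries that shared a replicate number tended weakly to deviate together (Pearson's r over genes 0.143 to 0.236). With that number as a block 2 of the 6 were called, *Sp5* and *Axin2*, both higher, where 7.02% of all tested genes were called and 2.93% were called higher.

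The log2 difference of *Sp5* between P+B and DMSO was 2.30 (SE 0.54, 95% interval 1.06 to 3.54, adjusted p = 0.0513 from limma), and the block left the difference as it was with an SE of 0.21 (interval 1.80 to 2.80, adjusted p = 0.00104 from limma). Within replicate 1 it was 2.52 and within replicate 2 it was 2.08. On the linear scale the mean of the P+B libraries was 5.36-fold that of DMSO. Since the values are whole numbers, that ratio could lie between 4.83 and 6 if they were rounded to the nearest number, or between 4.54 and 5.55 if decimals were dropped. The log2 difference of *Axin2* was 1.18 (SE 0.29, interval 0.51 to 1.85, adjusted p = 0.0600 from limma), with an SE of 0.14 under the block (interval 0.85 to 1.51, adjusted p = 0.00258 from limma). It was 1.26 within replicate 1 and 1.10 within replicate 2. With the block, the call of *Axin2* was lost when P+B replicate 1 was left out (1.12, adjusted p = 0.0554 from limma), while *Sp5* stayed called without any 1 of the 8 libraries, with adjusted p from 0.00636 to 0.0257 from limma.

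**Figure D1:**
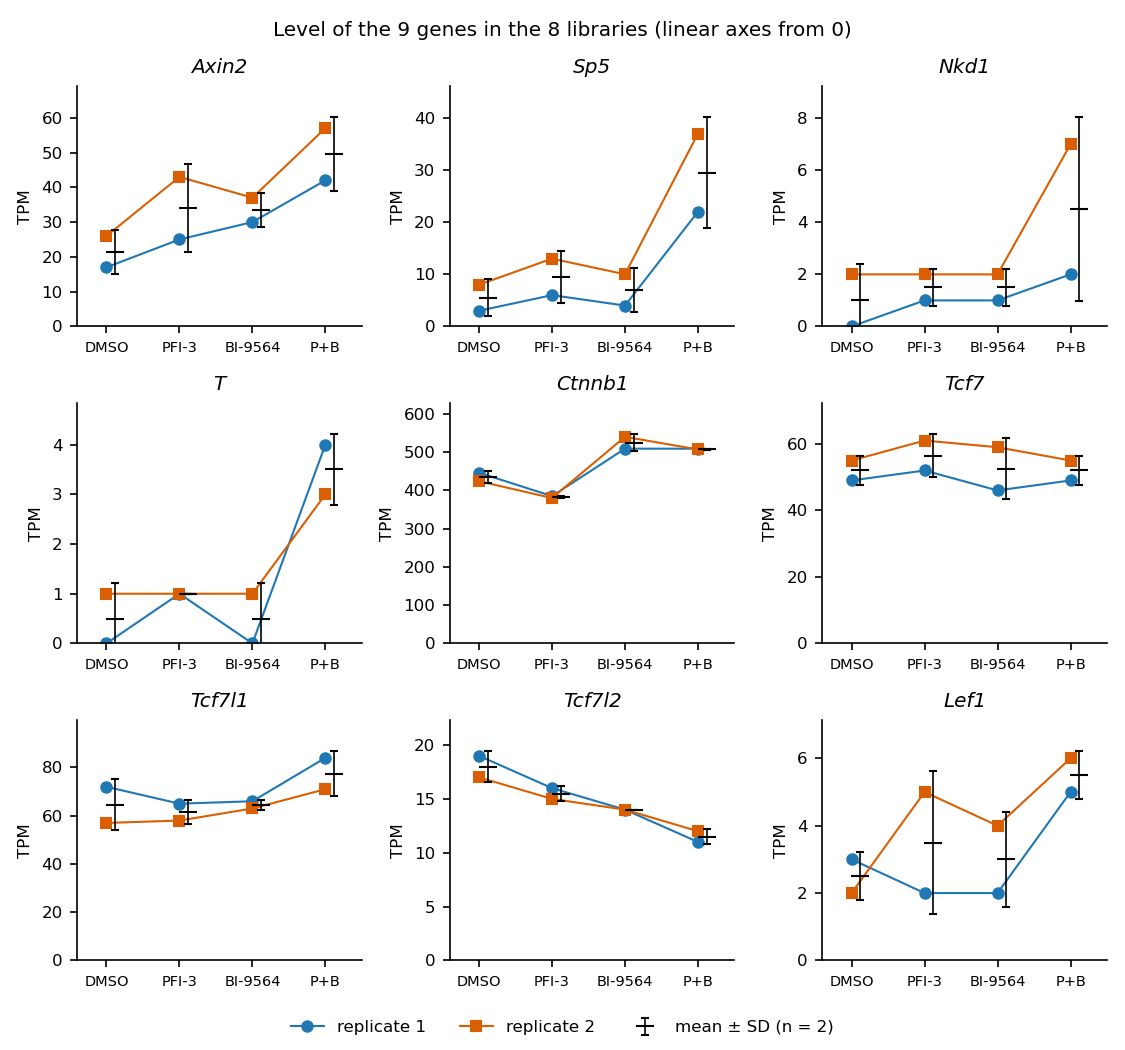
Level of each gene in TPM (vertical axes, linear from 0) by treatment, with replicate 1 as blue circles and replicate 2 as orange squares, joined within a replicate, and black marks for the mean ± SD of 2 libraries (bars cut at 0 where they would pass below it). *Sp5* and *Axin2* lie highest with P+B, at 22 and 37 TPM and at 42 and 57 TPM, and *Tcf7l2* lies lowest there, at 11 and 12 TPM.

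The sequence just before the annotated start of *Sp5* and *Axin2* is given because these were the members called with the block. Both are 250 bases on the plus strand of GRCm38.p6 from RefSeq, at chr2:70474673-70474922 for *Sp5* and chr11:108920099-108920348 for *Axin2*. Capitals mark the TCF/LEF cores of 7 letters, searched for on both strands, which were CTTTGAT for the preferred form and 3 close forms, namely CTTTGTT, as well as CTTTGAA, and lastly CTTTGTA.
Sp5: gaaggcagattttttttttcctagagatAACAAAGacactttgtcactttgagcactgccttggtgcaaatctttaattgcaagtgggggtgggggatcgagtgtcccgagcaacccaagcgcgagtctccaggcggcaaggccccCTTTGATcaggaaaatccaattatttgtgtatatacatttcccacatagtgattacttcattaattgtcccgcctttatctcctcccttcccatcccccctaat
Axin2: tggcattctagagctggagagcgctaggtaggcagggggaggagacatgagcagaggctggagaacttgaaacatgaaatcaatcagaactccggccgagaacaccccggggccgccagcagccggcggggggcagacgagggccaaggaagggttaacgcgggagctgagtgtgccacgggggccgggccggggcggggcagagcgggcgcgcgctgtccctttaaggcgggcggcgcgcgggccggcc
The *Sp5* window held CTTTGAT on the strand of the gene, beginning 104 bases before the start, and CTTTGTT on the opposite strand (read here as AACAAAG), 222 bases before it. The *Axin2* window held none of the 4 cores. The windows also differed in base composition, with 46% G and C and 6 CpG in *Sp5* against 69.2% and 24 CpG in *Axin2*. Over all 32851 windows of this length, 14.8% held at least 1 of the 4 cores and 3.21% held CTTTGAT. The 9 genes had 15 windows, since some have several starts, and 4 of these held a core, 1 each for *Sp5*, *T*, *Lef1* and *Tcf7l2*. The core of the AP-1 site that JUN dimers bind, searched for as TGACTCA or TGAGTCA only, was in 4.46% of all windows and in 0 of the 15. These matches describe letters in a short window, and no binding was measured here.

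*Sp5* also differed between P+B and each single compound under the block. Against PFI-3 the log2 difference was 1.58 (interval 0.34 to 2.82, adjusted p = 0.199 from limma, and 0.00898 with the block), and against BI-9564 it was 2.00 (interval 0.75 to 3.24, adjusted p = 0.346 from limma, and 0.00953 with the block). The P+B libraries did not overlap with either group, as was true of 23.8% of tested genes that were higher against PFI-3 and 17.6% that were higher against BI-9564. Without the block limma called 0 of the 6 members in either comparison, where 1.31% and 0.196% of tested genes were called, and 3 and 1 of the 6 had an unadjusted p under 0.05, as did 16.6% and 7.97% of tested genes. Under the block 1 of the 6 was called in each, where 3.43% and 0.802% of tested genes were called. The call against PFI-3 was lost when either library of PFI-3 or of P+B was left out, and that against BI-9564 when either library of PFI-3, BI-9564 or P+B was left out. The highest adjusted p were 0.136 and 0.167 from limma with the block.

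The single compounds gave *Sp5* log2 differences from DMSO of 0.72 under PFI-3 (interval −0.52 to 1.96) and 0.31 under BI-9564 (interval −0.93 to 1.55), and neither passed with or without the block. The corresponding differences of *Axin2* were 0.62 under PFI-3 (interval −0.05 to 1.29) and 0.64 under BI-9564 (interval −0.03 to 1.31), with adjusted p of 0.765 and 0.353 from limma, and 0.199 and 0.0593 from limma with the block. BI-9564 and PFI-3 differed by 0.02 for *Axin2* (interval −0.65 to 0.69) and by −0.42 for *Sp5* (interval −1.66 to 0.82), so differences in either direction remain within the intervals. Under P+B *Axin2* exceeded its level under PFI-3 by 0.56 and that under BI-9564 by 0.54 on the log2 scale, and neither difference passed.

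The effect of P+B was also set against the PFI-3 and BI-9564 effects added together, as an interaction on the log2 scale. For *Sp5* the departure was 1.27 (interval −0.48 to 3.03, adjusted p = 1 from limma, and 0.771 with the block). For *Axin2* it was −0.08 (interval −1.02 to 0.87, adjusted p = 1 from limma). None of the 6 members passed in the limma fit with groups only, with 0 at an unadjusted p under 0.05, and over all genes 0 passed and 3.26% had an unadjusted p under 0.05. In limma with the block also 0 of the 6 and 0 of all genes passed. There 1 of the 6 had an unadjusted p under 0.05, as did 588 of the 10222 tested genes. The added effects are a fair reference only if the doses within P+B equalled the single doses, which is not settled.

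The other targets, *Nkd1* and *T*, were near the floor of the table. *Nkd1*, which encodes an inhibitor that binds Dishevelled, had 0 and 2 TPM under DMSO, 1 and 2 under PFI-3, 1 and 2 under BI-9564, and 2 and 7 under P+B. P+B overlapped with each other group at 2 TPM. *T*, a T-box factor of the primitive streak, had 0 and 1 TPM under DMSO, 1 and 1 under PFI-3, 0 and 1 under BI-9564, and 4 and 3 under P+B. The P+B libraries stood above all others, at levels where a step of 1 TPM is a large share of the value. If the values were rounded, the ratio of the P+B to the DMSO mean of *T* could lie anywhere from 3 to 16. The mean of *T* over the other 3 groups was 0.667 TPM, so it reached a mean of 1 TPM only through P+B, and no test is given for it. In a limma fit of the 13101 genes whose mean reached 1 TPM, the log2 difference between P+B and DMSO was 1.5 for *Nkd1* (interval −0.13 to 3.13, adjusted p = 0.277, and 0.0963 with the block). It did not pass, where 2.59% of the genes in that fit were called, and 4.94% with the block. *Nkd1* moved between 0.71 without DMSO replicate 1 and 2.29 without DMSO replicate 2.

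Of the primitive streak markers other than *T*, *Mesp1*, *Tbx6* and *Gsc* were at 0 in all 8 libraries, and the 5 markers of that list summed to 4 to 7 TPM under DMSO and 6 to 9 TPM under P+B, nearly all of it *Eomes*.

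**Figure D2:**
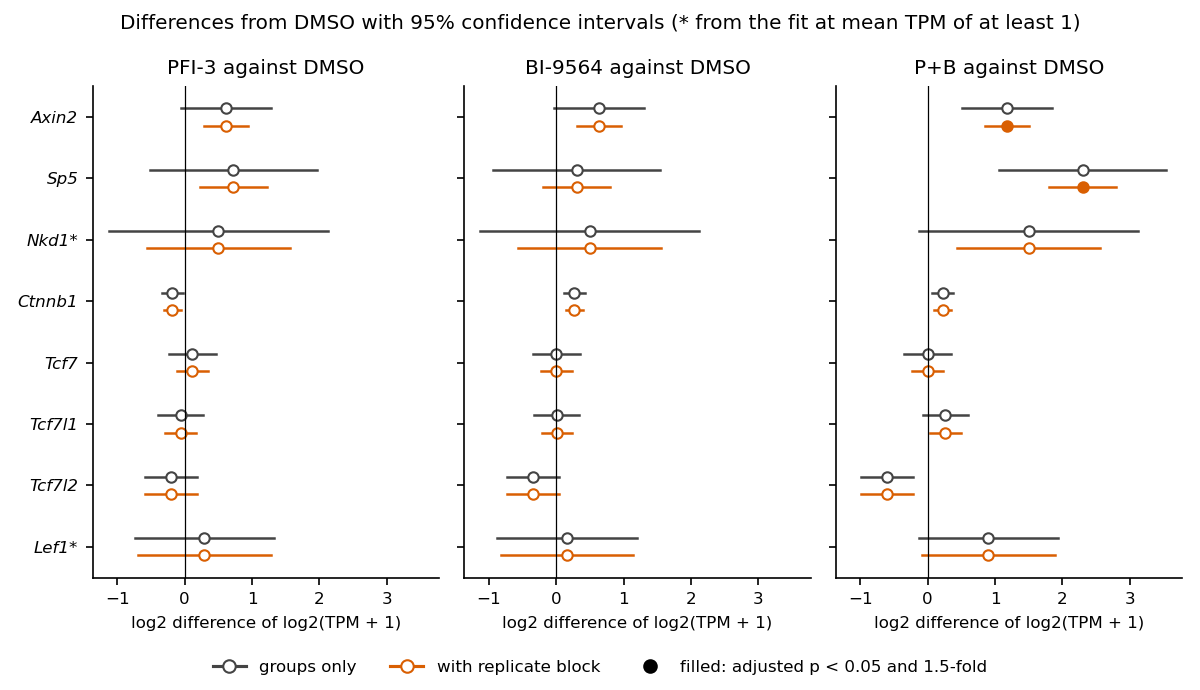
Log2 difference from DMSO (horizontal axes, on log2(TPM + 1)) for 8 of the 9 genes (without *T*) in the 3 treatments, with 95% intervals as lines, from limma with groups only in grey and with the replicate block in orange, and filled points for an adjusted p under 0.05 with a 1.5-fold change. The filled points are *Axin2* and *Sp5* under P+B with the block, at 1.18 and 2.30, and genes with an asterisk come from the fit with a mean of at least 1 TPM.

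*Ctnnb1* was the most abundant member, with a mean level ranked 292 of the 10222 tested genes. It had 446 and 424 TPM under DMSO, 385 and 380 under PFI-3, 509 and 540 under BI-9564, and 509 and 507 under P+B. PFI-3 lay below DMSO, and BI-9564 and P+B lay above it, with no overlap in any of the 3 cases. The order from low to high was PFI-3, DMSO, then P+B and BI-9564, which overlapped at 509 TPM (log2 difference of P+B from BI-9564 −0.05, interval −0.20 to 0.11). Against DMSO the log2 differences were −0.18 under PFI-3 (SE 0.07, adjusted p = 0.658 from limma), 0.27 under BI-9564 (adjusted p = 0.159) and 0.22 under P+B (adjusted p = 0.101, and 0.0411 with the block, at less than the 1.5-fold required). The comparisons between compounds were larger. P+B exceeded PFI-3 by 0.41 (interval 0.25 to 0.56, adjusted p = 0.0299 from limma), and BI-9564 exceeded PFI-3 by 0.45 (interval 0.30 to 0.61, adjusted p = 0.0667 from limma, and 0.0196 with the block). At any fold size, 11.6% of all genes passed the adjusted p between P+B and DMSO with the block, 1.43% passed it between P+B and PFI-3, and 2.51% passed it between BI-9564 and PFI-3 with the block. These differences are 1.33-fold and 1.37-fold, so *Ctnnb1* was called changed in no comparison. Between BI-9564 and PFI-3 limma called 0 of the 6 members, with 1 at an unadjusted p under 0.05, where 0.108% of tested genes were called (1.48% with the block) and 14.2% had an unadjusted p under 0.05. They are differences of transcript, and beta-catenin protein, which GSK3 inhibition stabilizes, was not measured here.

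The TCF/LEF factors were present in unequal amounts, with *Tcf7l1* and *Tcf7* far above *Tcf7l2* and *Lef1* in every library. TPM is scaled by transcript length, so these levels can be set side by side. The 4 genes together summed to 128 to 149 TPM per library.

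*Tcf7l2* had its lowest values with P+B. It had 19 and 17 TPM under DMSO, 16 and 15 under PFI-3, 14 and 14 under BI-9564, and 11 and 12 under P+B. The 4 groups formed an order without overlap, from DMSO through PFI-3 and BI-9564 to P+B, but no neighbouring pair differed by the test (adjusted p of 0.901, 0.772 and 0.789 from limma). How many of all tested genes form such an order was not counted, so it is given as a description only. P+B alone lay wholly below DMSO in 18.9% of all tested genes. The log2 difference between P+B and DMSO was −0.60 (SE 0.17, interval −0.99 to −0.22, adjusted p = 0.0815 from limma, and 0.0547 with the block), just past the 1.5-fold required. It was called when each library was centred on its median (−0.70, adjusted p = 0.0488 from limma) and when limma's trend was left out (adjusted p = 0.0427). With a pseudocount of 5 it was under 1.5-fold (−0.48, adjusted p = 0.0829 from limma). A fit of only the libraries compared gave an adjusted p of 0.185 from limma. With 1 library left out the difference ran from −0.68 to −0.53, a range that reaches under 1.5-fold. The share of *Tcf7l2* among the 4 factors went from 13.1% ± 0.219 (SD, n = 2) with DMSO to 7.86% ± 0.672 under P+B.

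*Tcf7l1*, the main TCF repressor of ESCs, had 72 and 57 TPM under DMSO, 65 and 58 under PFI-3, 66 and 63 under BI-9564, and 84 and 71 under P+B. Only P+B against PFI-3 and against BI-9564 did not overlap. Its log2 difference between P+B and DMSO was 0.27 (interval −0.06 to 0.60, adjusted p = 0.320 from limma), and its share of the 4 factors was 46.9% ± 4.84 under DMSO and 52.8% ± 5.0 under P+B. *Tcf7*, a factor that is also a Wnt target in many tissues, had 49 and 55 TPM under DMSO and the same 2 values with P+B, with 52 and 61 under PFI-3 and 46 and 59 under BI-9564. All 4 groups of *Tcf7* overlapped, and its log2 difference between P+B and DMSO was 0.00 (interval −0.35 to 0.35). *Lef1*, the least abundant factor, had 3 and 2 TPM under DMSO, 2 and 5 under PFI-3, 2 and 4 under BI-9564, and 5 and 6 under P+B. P+B stood above DMSO and BI-9564 and overlapped with PFI-3 at 5 TPM, and the log2 difference from DMSO was 0.90 in the fit with a mean of at least 1 TPM (interval −0.13 to 1.94, adjusted p = 0.301 from limma).

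**Figure D3:**
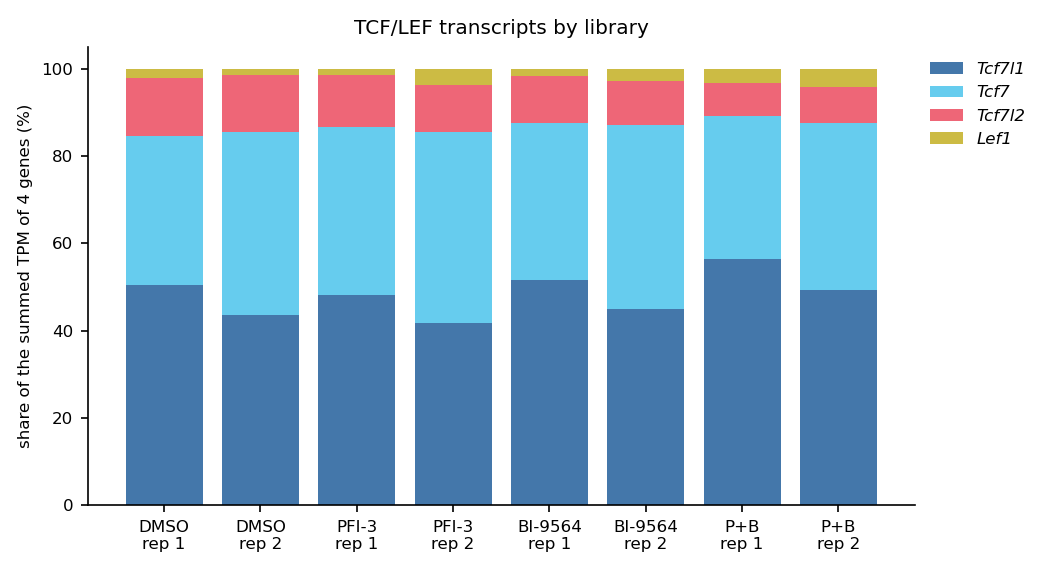
Share of each TCF/LEF gene in the summed TPM of the 4 (vertical axis, percent from 0 to 100), 1 bar per library. *Tcf7l1* takes between 41.7% and 56.4%, and *Tcf7l2* takes 7.38% and 8.33% in the P+B libraries against 13.3% and 13.0% with DMSO.

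Set out over the tested members, P+B lay wholly above DMSO for 3 of 6 (*Ctnnb1*, *Axin2* and *Sp5*) and wholly below for 1 (*Tcf7l2*), where 28.6% and 18.9% of all tested genes did so. BI-9564 lay wholly above for 2 of 6 and wholly below for 1, with 22.9% and 18.3% of all genes, and PFI-3 above for 0 and below for 2, with 16.5% and 12.8%. The 3 comparisons share the same DMSO libraries. With PFI-3 and with BI-9564 0 of 6 members were called by limma, with and without the block, and 1 of 6 had an unadjusted p under 0.05 in each case without it (*Ctnnb1*). Over all genes PFI-3 called 0%, with 6.79% at an unadjusted p under 0.05, and BI-9564 called 0.108%, or 1.53% with the block, with 14.9% at an unadjusted p under 0.05.

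Replicates differed in a regular way for these genes. *Axin2*, *Sp5* and *Tcf7* were higher in replicate 2 than in replicate 1 in 4 of 4 groups, as were 11.1% of all tested genes, and *Tcf7l1* was lower in 4 of 4, as were 12.8%. *Nkd1*, outside the test, was also higher in 4 of 4. The step of *Sp5* was 1.17, 1.00, 1.14 and 0.72 on the log2 scale with DMSO, PFI-3, BI-9564 and P+B. *Jun* moved with it, and the part of the JUN level in these steps was not tested.

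Of the rest of the pathway, 109 of 110 listed genes were in the table and 53 passed the filter. Between P+B and DMSO 0 of the 53 were called higher and 2 of the 53 lower, where 4% of all tested genes were called in either direction. An unadjusted p under 0.05 was found for 22 of the 53 genes, against 22.6% of all tested genes. Their median log2 difference was 0.09, against 0.06 over all tested genes. With the block 5 of the 53 were called higher and 4 of the 53 lower, against 2.93% and 4.1% of all tested genes. Of these 9, *Apcdd1* (higher) and *Wnt7b* (lower) passed the filter only through the group where they were highest, so their calls support nothing. Neither single compound called any of the 53 against DMSO in limma with or without the block. Without it, 5 of the 53 under PFI-3 and 7 of the 53 under BI-9564 had an unadjusted p under 0.05, against 6.79% and 14.9% of all tested genes.

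The co-repressor *Tle4*, a Groucho family partner of TCF factors, fell by 0.84 on the log2 scale with P+B (SE 0.11, adjusted p = 0.00664 from limma). It had 108 and 96 TPM under DMSO, 96 and 89 under PFI-3, 89 and 82 under BI-9564, and 60 and 53 under P+B. P+B lay below every other library. Over all tested genes, P+B lay wholly below DMSO in 18.9%, below PFI-3 in 18.9% and below BI-9564 in 13.7%, and the share below all of them was not counted. The call was lost without DMSO replicate 1 (−0.76, adjusted p = 0.0699 from limma) or P+B replicate 2 (−0.75, adjusted p = 0.0630). *Tle3* had 53 and 51 TPM under DMSO and 38 and 36 under P+B, which missed the threshold (−0.48, adjusted p = 0.0580). Of the 12 nuclear co-factors tested *Tle4* was the 1 called, and the most abundant, *Aes*, *Ctbp2* and *Ctbp1*, had log2 differences of 0.04, −0.10 and 0.40, none of them called.

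Of the 3 other target genes tested, *Myc*, a growth-promoting transcription factor, fell by 1.16 on the log2 scale (SE 0.15, adjusted p = 0.00546 from limma). It had 40 and 32 TPM under DMSO, 26 and 25 under PFI-3, 32 and 33 under BI-9564, and 16 and 15 under P+B, opposite in direction to *Sp5* and *Axin2*. This call too was lost without DMSO replicate 1 (−1.0, adjusted p = 0.0562 from limma) or P+B replicate 2 (−1.11, adjusted p = 0.0555). *Ccnd1*, which encodes cyclin D1, had 40 and 54 TPM under DMSO, 40 and 58 under PFI-3, 29 and 29 under BI-9564, and 25 and 26 under P+B. Its log2 difference between P+B and DMSO was −0.84 (adjusted p = 0.0539 from limma, and 0.0157 with the block). *Cdx1*, a homeobox target of Wnt in the early embryo, had 14 and 19 TPM under DMSO, 18 and 30 under PFI-3, 10 and 20 under BI-9564, and 24 and 46 under P+B. The P+B libraries overlapped with PFI-3, and the log2 difference from DMSO was 0.98 (adjusted p = 0.199 from limma, and 0.0120 with the block). With the block *Sp5*, *Axin2* and *Cdx1* were called higher and *Myc* and *Ccnd1* lower, where 2.93% of all tested genes were called higher and 4.1% lower. The calls of *Cdx1* and *Ccnd1* were not examined with libraries left out.

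The 4 pluripotency genes listed as repressed by TCF7L1 all had positive log2 differences between P+B and DMSO, of which 0 were called without the block and 2 with it, both higher, where 2.93% of all tested genes were called higher with the block. All 4 were also positive under PFI-3 alone, with a median of 0.64 against 0.43 with P+B, and 3 of the 4 were negative under BI-9564. *Klf2* had 65 and 52 TPM under DMSO, 109 and 95 under PFI-3, 88 and 60 under BI-9564, and 152 and 94 under P+B. Its log2 difference between P+B and DMSO was 1.03 (adjusted p = 0.0568 from limma, and 0.00284 with the block). *Esrrb* had 86 and 58 TPM under DMSO, 128 and 110 under PFI-3, 76 and 54 under BI-9564, and 141 and 100 under P+B, and its difference was 0.74 (adjusted p = 0.120 from limma, and 0.00486 with the block). For *Esrrb* PFI-3 alone also gave 0.74, which did not pass (adjusted p = 0.594 from limma). *Nanog* and *Tfcp2l1* had differences of 0.07 and 0.11. In each of the 4 genes, *Klf2* and *Esrrb* included, replicate 1 was above replicate 2 in every group, as in 12.8% of all tested genes. Of the 8 ESC markers, a list that also holds *Esrrb* and *Nanog*, the other 6 had negative differences between P+B and DMSO, and the median of the 8 was −0.17. Of these 6, 1 was called lower, *Tdgf1*, a co-receptor for Nodal (−0.93, adjusted p = 0.00916 from limma), where 2.72% of all tested genes were called lower. It had 163 and 156 TPM under DMSO, 221 and 196 under PFI-3, 101 and 76 under BI-9564, and 82 and 84 under P+B, so P+B overlapped with BI-9564. Against DMSO all 8 markers were negative under BI-9564, and 7 of the 8 were positive under PFI-3.

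Upstream of the nucleus few genes were called. Of 23 ligands and R-spondins 1 passed the filter, *Wnt7b*, with 12 and 6 TPM under DMSO and 3 and 0 under P+B. It passed only through DMSO, with a mean of 3.83 TPM over the other 3 groups, so its call with the block supports nothing and no p-value is given for it. The other ligands with the highest means, *Wnt5b* and *Wnt11*, reached at most 6 and 12 TPM. Of 10 receptors tested *Fzd10* alone was called, higher, and with the block only (0.62, adjusted p = 0.0357), while the most abundant, *Ryk*, *Fzd5* and *Lrp5*, had differences of −0.19, 0.35 and 0.17. The secretion genes *Porcn* and *Wls* and the ubiquitin ligase *Znrf3*, which removes Frizzled receptors from the surface, had differences of 0.42, 0.42 and 0.35, and *Rnf43* had at most 3 TPM. *Dvl1*, *Dvl2* and *Dvl3*, the Dishevelled genes, had differences of 0.32, 0.32 and 0.20, and none was called. Of 7 destruction complex genes *Csnk1a1*, casein kinase 1 alpha, passed the adjusted p at less than 1.5-fold (−0.39, adjusted p = 0.0374 from limma, with 4.89% of all genes past the adjusted p at any fold), and *Gsk3a* and *Fbxw11* had differences of 0.09 and −0.06.

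Among the secreted and membrane inhibitors *Apcdd1*, itself a Wnt target, had 3 and 3 TPM under DMSO and 9 and 8 under P+B. It passed the filter only through P+B, with a mean of 4 TPM over the other 3 groups, so its call with the block supports nothing and no p-value is given for it. *Sfrp1*, *Notum* and *Kremen1* had differences of 0.20, −0.06 and −0.06. *Dact2* was the 1 intracellular inhibitor tested, with a difference of −0.14, and *Dact1* and *Dact3* had at most 5 and 7 TPM. The 5 adhesion partners of beta-catenin all had negative differences. *Cdh1*, E-cadherin, which binds beta-catenin at the membrane, had 485 and 488 TPM under DMSO, 452 and 429 under PFI-3, 371 and 379 under BI-9564, and 322 and 329 under P+B. Its difference between P+B and DMSO was −0.58 (SE 0.07, adjusted p = 0.00349 from limma), just under 1.5-fold, and that of *Ctnna1*, alpha-catenin, was −0.37 (adjusted p = 0.0409). *Ctnnd1*, p120-catenin, had a difference of −0.18 and was not called.

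**Figure D4:**
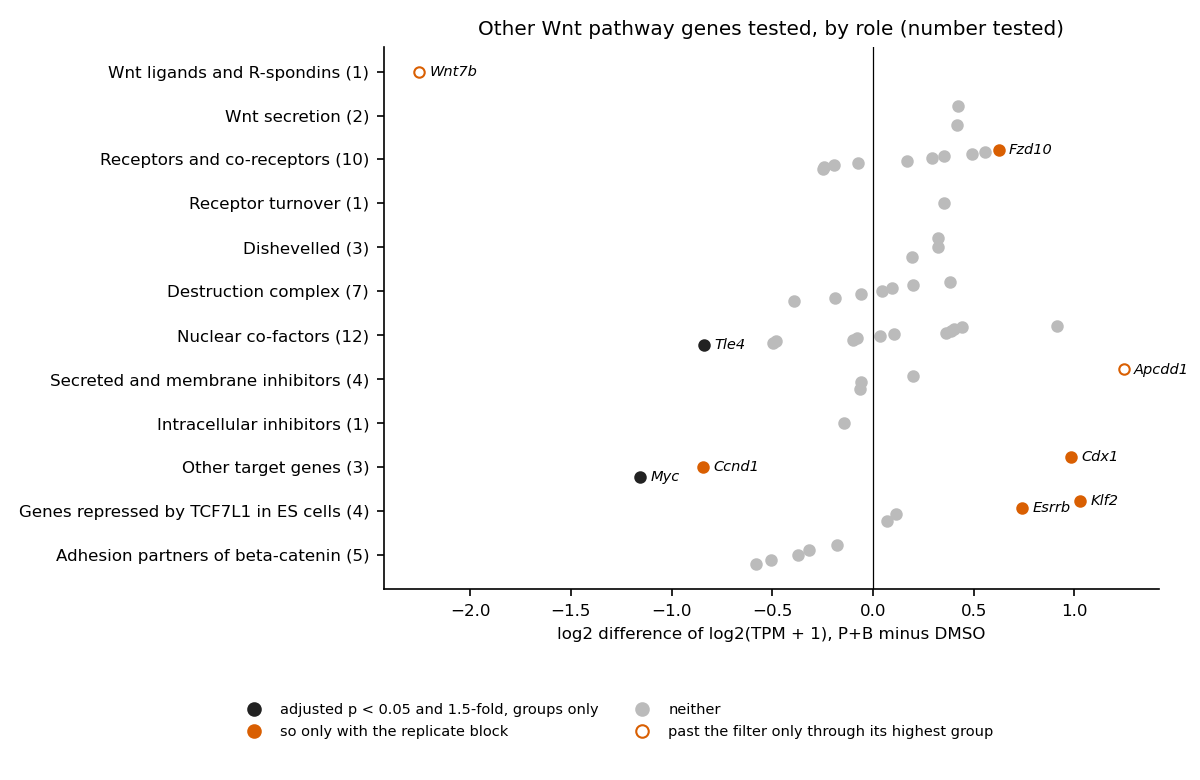
Log2 difference between P+B and DMSO (horizontal axis, on log2(TPM + 1)) for the 53 other pathway genes tested, in rows by role with the number tested, each point 1 gene. Black points are called by limma with groups only (*Tle4* at −0.84 and *Myc* at −1.16), orange points only with the replicate block, and grey points in neither. The hollow orange points are *Apcdd1* and *Wnt7b*, which passed the filter on low values only through their highest group, so their calls support nothing.

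The genes whose log2 values ran most like each member over the 8 libraries are given as a description, since all share the same libraries, treatments and replicate steps. *Gbx2*, a homeobox gene, ran most like *Sp5* (Pearson's r = 0.970), with 7 and 10 TPM under DMSO, 8 and 15 under PFI-3, 9 and 15 under BI-9564, and 26 and 32 under P+B, followed by *Scaf4* (0.967). *Axin2* was nearest to *Kif13a* (0.993) and *Msl3* (0.986), *Tcf7l2* to *Atp1b1* (0.986) and *Osbpl7* (0.981), *Ctnnb1* to *Wrnip1* (0.986) and *Ctcf* (0.978), *Tcf7* to *Hypk* (0.976) and *Vac14* (0.967), and *Tcf7l1* to *Ubxn4* (0.974) and *Cenpx* (0.951). *Osbpl7* had 58 and 54 TPM under DMSO and 18 and 22 under P+B. Between 0.205% and 1.64% of tested genes reached an r above 0.9 with a given member.

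In the GENCODE M21 annotation of GRCm38 (mm10), all 9 are protein-coding genes. *Sp5* spans chromosome 2 from 70474923 to 70477729, *Axin2* chromosome 11 from 108920349 to 108950783, *Nkd1* chromosome 8 from 88521354 to 88594884, and *T* chromosome 17 from 8434423 to 8442496. *Ctnnb1* spans chromosome 9 from 120929216 to 120960507, *Lef1* chromosome 3 from 131110471 to 131224356, and *Tcf7l2* chromosome 19 from 55741820 to 55933654, all of these on the plus strand. *Tcf7* (chromosome 11, 52252371 to 52283014) and *Tcf7l1* (chromosome 6, 72626378 to 72789254) are on the minus strand. *Ctnnb1* overlaps *Ulk4* on the other strand, which had 2 to 4 TPM, and every other annotated gene that overlaps a member had at most 1 TPM. Whether reads were counted by strand is not given in the sources used here.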

How the data were processed

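RNA-seq of 8 libraries was analysed, 2 for each of 4 groups taken from the labels. The submitters' processing notes name bcl2fastq, Bowtie2 2.2.5, RSEM 1.3.0 and mm10. The authors deposited 1 table in which the score of each gene and library is its TPM as a whole number. All values were whole, and the totals (991574 to 991897) were 8103 to 8426 below the full total of TPM. Raw counts were not used here, so no count-based test was run. Rows with a repeated name numbered 94, none of them a member.

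Values were fitted as log2(TPM + 1) with limma 3.58.1 in R 4.3.3 (lmFit, eBayes with trend), all groups together. The fit with groups only had 4 residual degrees of freedom, and Benjamini-Hochberg adjustment was made within each comparison. The fit with groups only was tested on simulated data that held no replicate effect, so that test does not cover the fit with the block. With 2 against 2 libraries an exact two-sided permutation test cannot go below p = 0.333. Replicate numbers come from the labels. For each of the 6 pairs of groups, the difference between replicates 1 and 2 was correlated over genes (Pearson's r 0.143 to 0.236). These correlations are weak. The main fit used groups only, and same-numbered samples were treated as pairs only in the alternative fit with the block. The blocked value stands beside a result whose call it alters. Alternatives were pseudocounts of 0.5 and 5, a mean of at least 1 and no filter, quantile normalization, median centring, no trend, only the libraries compared, and leaving out each library. Combinations with the block were added after seeing the data.

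The named genes are the 9 members and *Jun*, other pathway genes past the thresholds against DMSO, otherwise up to 3 per list by mean level, the 2 genes most like each tested member, and cell type markers. *Tle3*, *Tfcp2l1*, *Rspo1*, *Fzd10*, *Apcdd1*, *Cdx2* and *Tnfrsf19* were added after their values were seen. The members and lists were chosen with earlier results of these data known. Positions are from GENCODE M21 and promoters from RefSeq (GRCm38.p6, all 9 genes matched).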

Additional observations from a re-analysis of the deposited data

How the results depend on the processing

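The number of members called between P+B and DMSO, 0 of 6, became 2 with the replicate block and 1 with a pseudocount of 5 (*Sp5*, 1.72, adjusted p = 0.0397 from limma), with median centring or without the trend (*Tcf7l2*). Combined with the block, quantile normalization and median centring each gave 3 (*Sp5*, *Axin2* and *Tcf7l2*) and no filter gave 2. Without the block, leaving out 1 library gave 0 throughout, with *Sp5* between 1.72 and 2.89 and *Axin2* between 0.89 and 1.47, and with the block it gave 1 to 2. Against PFI-3 and against BI-9564 the count of 0 became 1 (*Sp5*) with the block, alone or with either scaling, 0 with the block and no filter, and 0 to 1 with the block and 1 library left out. A limma fit of only the 4 libraries compared called 0 genes, with 1963 at an unadjusted p under 0.05 for P+B against DMSO. The block changed no other call of a member, and all calls made or lost were changes of significance with the direction kept. Median centring lowered the median of all genes from 0.06 to −0.03.

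Some uncalled differences changed sign. Median centring gave −0.042 for *Tcf7* and −0.038 for *Tcf7l1* between BI-9564 and DMSO. With 1 library left out, BI-9564 against DMSO ran from −0.28 to 0.89 for *Sp5*, −0.17 to 0.18 for *Tcf7* and −0.16 to 0.18 for *Tcf7l1*. BI-9564 against PFI-3 ran from −0.36 to 0.40 for *Axin2*, −0.99 to 0.15 for *Sp5*, −0.29 to 0.066 for *Tcf7* and −0.011 to 0.15 for *Tcf7l1*. P+B against BI-9564 ran from −0.18 to 0.17 for *Tcf7*, and PFI-3 against DMSO from −0.23 to 0.11 for *Tcf7l1*. The interaction ran from −0.46 to 0.30 for *Axin2*, −0.30 to 0.056 for *Tcf7* and −0.14 to 0.014 for *Tcf7l2*. The cause was not tested. TPM keeps no depth, so the precision of low members (*T*, *Nkd1*, *Lef1* and *Sp5*) beyond their replicate spread is unknown.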

Other observations

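Some low genes of the pathway lists fell outside the test, and they are given as values chosen after they were seen. *Cdx2*, *Tnfrsf19* and *Rspo1* were picked from the higher side with P+B, so they do not stand for the low genes as a whole. Others were lower there. *Wnt11* had 3 and 12 TPM under DMSO, 2 and 5 under PFI-3, 7 and 4 under BI-9564, and 2 and 1 under P+B. *Dact1* had 4 and 4 TPM under DMSO, 3 and 5 under PFI-3, 5 and 3 under BI-9564, and 2 and 3 under P+B. *Cdx2*, a homeobox target of Wnt, had 1 and 0 TPM under DMSO, 2 and 3 under PFI-3, 2 and 4 under BI-9564, and 5 and 10 under P+B. *Tnfrsf19*, a receptor gene that is also a Wnt target, had 2 and 2 TPM under DMSO, 2 and 5 under PFI-3, 4 and 4 under BI-9564, and 6 and 6 under P+B. *Rspo1*, a secreted enhancer of Wnt signalling, had 2 and 2 TPM under DMSO, 5 and 4 under PFI-3, 4 and 4 under BI-9564, and 3 and 5 under P+B. Its P+B libraries overlapped with both single compounds.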
